A study of Homo sapiens with 30 samples.

Results

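The genes described here are 10 human genes of cytosolic nucleic acid sensing: RIGI, IFIH1, DHX58, MAVS, CGAS, STING1, IFI16, ZBP1, TREX1 and SAMHD1. They were taken by symbol, with no threshold on their values, from the 61471 rows of each expression table, and all 10 were found in both tables. The set was proposed with earlier results of these data known. Sensors of this kind detect RNA or DNA where it does not belong, as in viral infection or after damage to nuclei or mitochondria, and switch on interferon genes. RIGI encodes RIG-I and IFIH1 encodes MDA5, helicases that bind double-stranded RNA, while DHX58 encodes LGP2, a related helicase that modulates them. RIG-I and MDA5 signal through MAVS, an adaptor on mitochondria. CGAS binds DNA and makes the cyclic dinucleotide cGAMP, which activates STING1 at the endoplasmic reticulum, and IFI16 is a further DNA-binding protein linked to STING1. ZBP1 binds Z-form nucleic acids and can start necroptosis, a lytic form of cell death. TREX1 degrades cytosolic DNA and SAMHD1 hydrolyses dNTPs, and loss of either is a known cause of unwanted interferon production.

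The study asked how glioblastoma cells respond to IFN-γ over weeks and what remains after its withdrawal. RNA-seq was run on U87-MG (U87) and U251-MG (U251), both wild-type human glioblastoma cell lines, in 5 groups per line of 3 biological replicates each: Untreated cells, collected at day 3 by the labels but at the start of treatment by the study's methods; cells exposed to IFN-γ for 3 days (D3), 14 days (D14) or 28 days (D28); and cells from which IFN-γ was withdrawn after day 14 and which were cultured on to day 28 (washout, D28WO). The dose is labelled 1 µg/mL in the treatment protocol, the unit differs elsewhere in the labels, and the study's methods give a lower dose, so it is left as uncertain here. Both lines are often misidentified in use, and the methods state that neither was authenticated by STR profiling. There was no untreated group at day 14 or day 28, so time in culture and IFN-γ exposure cannot be told apart in comparisons of these times with Untreated, nor at D3 if the Untreated cells were collected at the start.

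Values are in TPM, a measure of transcript abundance scaled for gene length and to an equal sum in every library, and the depth of each library is unknown beyond the minimum that the methods state for all of them. A supplementary sheet of the study calls the tables CPM, which is not scaled for gene length. Of the values above 0 in a library, 87.4% to 90.0% were shared by no other gene in U87 and 87.8% to 89.9% in U251, whereas whole reads over 1 library total would give most low genes shared values, so the values were read as TPM. In U87, 13 libraries were used, with 2 at D3 and 2 at D14 (replicates 2 and 3), because 2 columns of the table carry the same name and were not used. All 15 libraries of U251 were used. IRF1, on which the treatment labels were checked, is a direct target of IFN-γ signalling. It had a mean level of 133 TPM in Untreated U87 cells and 448 TPM at D3, but 122 TPM at D14, and 480 TPM at D28. The libraries labelled U87 D14 thus stood at the Untreated level for IRF1, although they are labelled as treated, which bears on every U87 comparison with D14. The study itself describes a weaker interferon response in U87 at D14 than at D3 and D28. In U251 the D14 mean of IRF1, 300.3 TPM, was above the Untreated mean of 141 TPM. IRF1 did not set washout apart from continued exposure: the D28WO mean was 509.6 TPM in U87 and 620.1 TPM in U251, with log2 differences from D28 of 0.09 ± 0.09 (adjusted p = 0.57) and 0.04 ± 0.11 (adjusted p = 0.81), so this gene is no check of the washout label. The D28 mean in U251 was 603 TPM. Of the glial markers, GFAP was at 1219 to 1309 TPM and SOX2 at 158 to 160.2 TPM in Untreated U251, whereas Untreated U87 had 2.33 to 6.90 TPM of GFAP and at most 0.411 TPM of SOX2.

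Differences between groups are given as log2 fold changes on the log2(TPM + 1) scale with their standard errors (limma, all groups of a line in 1 fit), and this scale understates changes of low genes. A gene passed when its Benjamini-Hochberg adjusted p, taken over all genes tested in the line, was below 0.05 and its log2 fold change was above 1 in size. In U87, 9 of the 10 genes were tested, since CGAS was below the minimum mean of 0.5 TPM, and in U251 all 10 were tested. CGAS reached that mean in U251 only through its treated level. It stays in the count of 10, but its tests there are not used as a result. The lines were not tested against each other, because their tables were made separately. The median log2 change over all genes tested was not 0. In the 4 comparisons with Untreated, in order of time with washout last, it was 0.20, 0.15, 0.19 and 0.25 in U87, and 0.13, 0.10, 0.16 and 0.02 in U251, so small differences are read against these shifts. In U251 the same median was -0.12 between D28WO and D28.

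Against Untreated, 2 of the 9 tested genes passed at D3 in U87 (IFIH1 and DHX58, both higher), where 6.23% of all genes passed in either direction. At D14 only DHX58 passed (background 2.1%). At D28 5 genes rose (IFIH1, DHX58, STING1, ZBP1 and SAMHD1; background 7.38%). At D28WO RIGI, IFIH1 and DHX58 rose and TREX1 fell (background 14.9%). In U251, RIGI, IFIH1, DHX58, ZBP1 and SAMHD1 rose at D3 (5 of 10 genes, background 14.3%), at D28 (background 15.2%) and at D28WO (background 7.45%), and all of these but ZBP1 rose at D14 (4 of 10 genes, background 5.76%). MAVS and IFI16 did not pass against Untreated in either line.

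**Figure D1:**
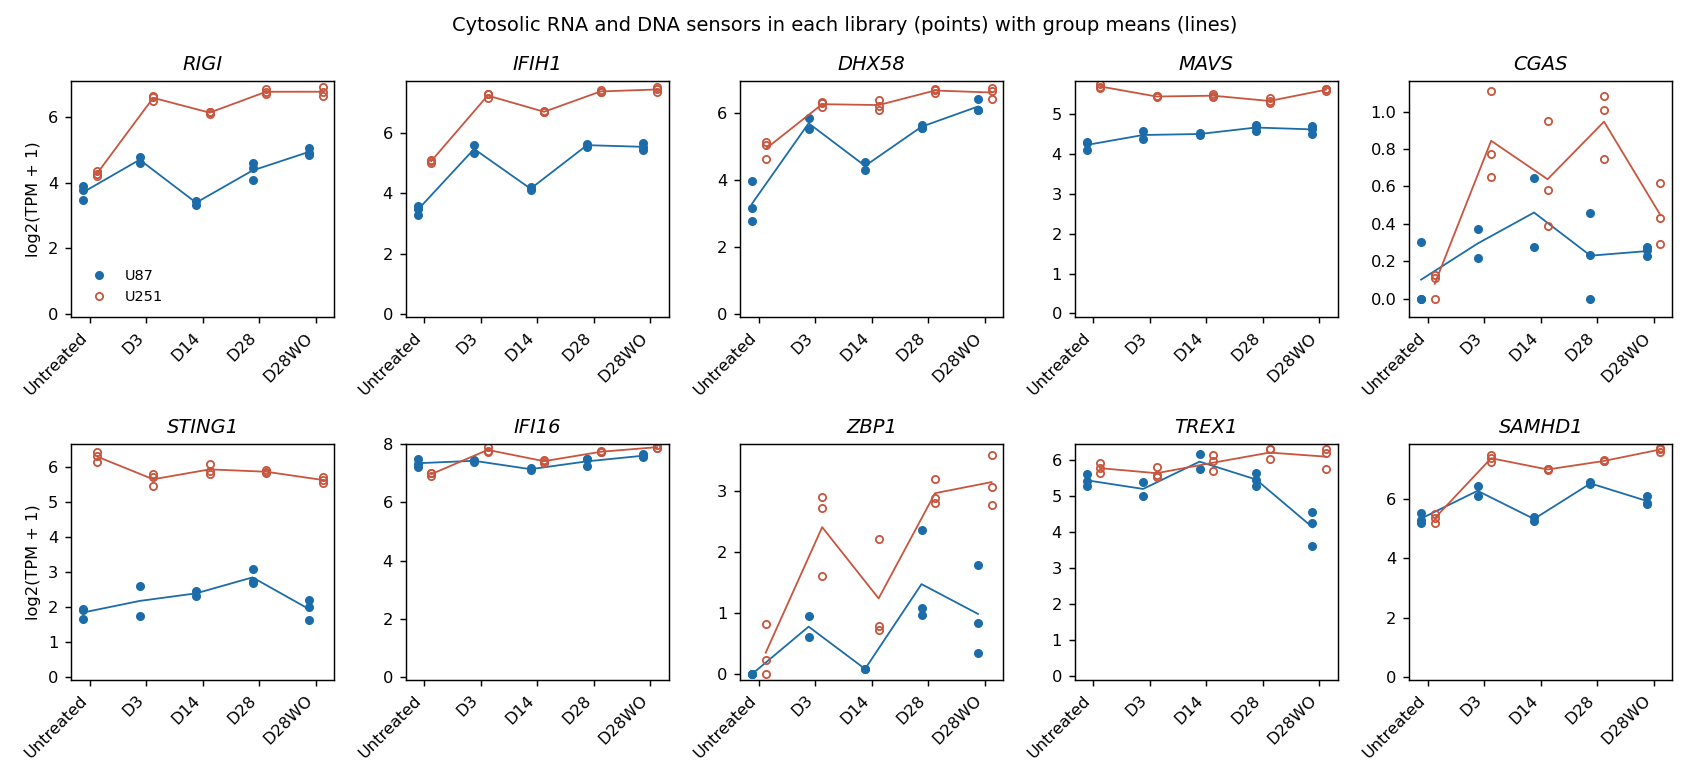
Level of each gene as log2(TPM + 1) on the vertical axis in every library (filled blue points, U87; open red points, U251), by group on the horizontal axis, with lines through the group means; the vertical scale differs between panels. RIGI, IFIH1, DHX58 and SAMHD1 stand higher in every treated U251 group than in Untreated, in U87 the same genes lie lower at D14 than at D3 and D28, and STING1 lies at 2.07 to 7.56 TPM in U87 against 42.9 to 85.6 TPM in U251.

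Upstream sequence was available for 6 of the 10 genes (RIGI, IFIH1, MAVS, IFI16, TREX1 and SAMHD1) in RefSeq windows of GRCh38.p14 that run from 250 bases before to 50 bases after a gene's start, and IFI16 has 2 such windows. The windows were searched on both strands for the interferon-stimulated response element GAAANNGAAA, the γ-activated site TTCNNNGAA, and GAAANGAAA, a closer spacing of the first that was added after the sequences had been seen. Of 35116 windows of this length over all genes, 3.57% hold the first motif, 7.66% the second and 3.12% the third. Windows are shown for RIGI and IFIH1, which rose, and for MAVS, their adaptor, which did not pass. Capitals mark motif matches, and each sequence is written 5′ to 3′ on the strand of its gene, which is the minus strand for RIGI (chr9:32526147-32526446) and IFIH1 (chr2:162318635-162318934) and the plus strand for MAVS (chr20:3846584-3846883).
RIGI: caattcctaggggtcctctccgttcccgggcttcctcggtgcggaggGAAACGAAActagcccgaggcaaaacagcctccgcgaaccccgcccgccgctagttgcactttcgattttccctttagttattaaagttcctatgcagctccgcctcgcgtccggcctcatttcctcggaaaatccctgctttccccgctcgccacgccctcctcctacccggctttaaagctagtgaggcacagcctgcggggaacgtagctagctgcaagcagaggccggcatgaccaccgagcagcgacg
IFIH1: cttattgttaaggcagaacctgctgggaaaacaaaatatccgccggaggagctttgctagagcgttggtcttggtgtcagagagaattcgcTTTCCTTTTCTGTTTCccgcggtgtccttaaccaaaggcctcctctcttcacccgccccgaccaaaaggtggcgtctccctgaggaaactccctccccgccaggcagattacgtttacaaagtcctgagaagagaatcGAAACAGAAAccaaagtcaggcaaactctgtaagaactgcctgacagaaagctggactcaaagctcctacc
MAVS: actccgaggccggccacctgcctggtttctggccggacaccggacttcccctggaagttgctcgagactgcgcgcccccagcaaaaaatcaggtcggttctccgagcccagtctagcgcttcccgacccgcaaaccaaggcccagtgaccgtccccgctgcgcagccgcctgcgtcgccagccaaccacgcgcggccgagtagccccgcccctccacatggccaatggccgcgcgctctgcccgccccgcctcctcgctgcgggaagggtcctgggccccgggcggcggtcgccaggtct

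Of the 6 genes, IFIH1 alone held GAAANNGAAA, which matched 3 times: 2 overlapping matches on the opposite strand, 159 to 144 bases before the start, and a match 21 to 12 bases before it. RIGI held GAAANGAAA once, 203 to 195 bases before its start, and 1 of the IFI16 windows held it 54 to 46 bases before the start. No window of the 6 genes held TTCNNNGAA, and the windows of MAVS, TREX1 and SAMHD1 held none of the 3 motifs. These are matches of letters, and nothing about binding was measured.

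The RNA helicases rose in both lines. RIGI (chr9:32455302-32526208 in GRCh38, minus strand) was at 13.8, 12.6 and 10.0 TPM in the Untreated libraries, 23.3 and 26.5 for D3, 9.01 and 9.93 for D14, 15.7, 23.3 and 20.5 for D28, and 32.3, 28.5 and 27.9 for D28WO in U87. Every D3, D28 and D28WO library was above every Untreated library, and both D14 libraries were below them. The difference from Untreated was 0.99 ± 0.18, adjusted p = 0.0042 at D3 and 0.66 ± 0.16, adjusted p = 0.013 at D28, both under the limit on fold change, and 1.23 ± 0.16, adjusted p = 1.2e-04 at D28WO, where it rose 2.44-fold in mean TPM. After quantile normalization the last value was 0.81 and no longer passed. In U251 RIGI was at 17.2, 19.2 and 18.1 TPM in the Untreated libraries, 89.0, 95.7 and 98.3 for D3, 69.9, 66.9 and 69.4 for D14, 103, 106 and 113 for D28, and 98.3, 119 and 106 for D28WO. No treated library came near the Untreated range, and the gene rose by 2.31 ± 0.07, adjusted p = 3.0e-11 at D3, 1.86 ± 0.07, adjusted p = 1.0e-09 at D14, 2.50 ± 0.07, adjusted p = 1.2e-11 at D28 and 2.50 ± 0.07, adjusted p = 1.5e-11 at D28WO. A second annotated protein-coding gene without a symbol overlaps RIGI on the same strand, with at most 10.5 TPM in U87 and 14.0 TPM in U251, and how reads in the shared stretch were assigned is not given in the sources used here. It rose against Untreated in U87 at D28 (1.68 ± 0.31, adjusted p = 0.0031) and D28WO (1.24 ± 0.31, adjusted p = 0.0072), and in U251 at all 4 times, from 1.42 ± 0.35, adjusted p = 0.0051 at D28 to 1.88 ± 0.35, adjusted p = 0.001 at D28WO. As in any bulk sample, more cells with a transcript and more transcript per cell cannot be told apart.

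IFIH1 (chr2:162267074-162318684, minus strand) rose in U87 at every time but D14. Its level there was 11.03, 10.2 and 8.68 TPM in the Untreated libraries, 39.5 and 46.9 for D3, 17.4 and 16.0 for D14, 44.9, 48.8 and 47.5 for D28, and 48.9, 41.9 and 45.1 for D28WO. Every treated library, D14 included, was above the Untreated libraries, but D14 lay well below the other treated groups. IFIH1 rose 4.34-fold in mean TPM at D3 (2.01 ± 0.13, adjusted p = 1.5e-06), 4.73-fold at D28 (2.14 ± 0.11, adjusted p = 2.5e-07) and 4.55-fold at D28WO (2.08 ± 0.11, adjusted p = 1.9e-07), while D14 differed by 0.70 ± 0.13, adjusted p = 0.014 and did not pass. In U251 it was at 32.7, 33.2 and 31.2 TPM in the Untreated libraries, 141, 153 and 152 for D3, 102, 101 and 103 for D14, 161, 159.9 and 169 for D28, and 161, 173 and 179 for D28WO. The groups did not overlap with Untreated at any time, and the rise was 2.16 ± 0.05, adjusted p = 2.9e-12 at D3, 1.63 ± 0.05, adjusted p = 1.8e-10 at D14, 2.30 ± 0.05, adjusted p = 1.3e-12 at D28 and 2.37 ± 0.05, adjusted p = 1.0e-12 at D28WO.

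DHX58 (chr17:42101404-42112714, minus strand) had the largest log2 fold change of the tested genes at D28WO in U87. In U87 it was at 7.94, 14.8 and 5.85 TPM in the Untreated libraries, 57.7 and 45.3 for D3, 18.9 and 22.3 for D14, 49.6, 46.7 and 46.3 for D28, and 67.6, 84.5 and 67.5 for D28WO. All treated libraries exceeded the Untreated ones, which varied more than for RIGI and IFIH1. DHX58 rose by 2.40 ± 0.27, adjusted p = 1.4e-04 at D3, 1.12 ± 0.27, adjusted p = 0.037 at D14, 2.29 ± 0.24, adjusted p = 5.7e-05 at D28 and 2.90 ± 0.24, adjusted p = 4.0e-06 at D28WO, a 7.69-fold difference in mean TPM. The D14 call was lost when U87 Untreated replicate 1 (1.05, adjusted p = 0.080) or 3 (0.86, adjusted p = 0.094) or D14 replicate 2 (1.24, adjusted p = 0.15) or 3 (1.01, adjusted p = 0.21) was left out. D14 then holds 1 library, which is assumed to vary like the other groups, and its fold was about as large. It was also lost with quantile normalization (0.79, adjusted p = 0.089), median-ratio size factors (0.96, adjusted p = 0.0503), a replicate block (1.09, adjusted p = 0.0502), no filter on low values (adjusted p = 0.15) and only the compared groups in the fit (adjusted p = 0.25), the last of which also ended the D3 call (adjusted p = 0.054). In U251, DHX58 was at 31.9, 23.8 and 34.4 TPM in the Untreated libraries, 71.4, 78.1 and 80.1 for D3, 84.3, 68.1 and 73.7 for D14, 97.3, 103 and 106 for D28, and 85.8, 108 and 100.4 for D28WO. It rose there by 1.33 ± 0.12, adjusted p = 1.5e-06 at D3, 1.31 ± 0.12, adjusted p = 7.5e-06 at D14, 1.74 ± 0.12, adjusted p = 9.4e-08 at D28 and 1.68 ± 0.12, adjusted p = 2.3e-07 at D28WO. The changes of RIGI and IFIH1 in U251 were larger than those of DHX58 at each of the 4 times, whereas in U87 DHX58 had the largest change of the 3 helicases at each time, but the differences between genes were not tested.

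**Figure D2:**
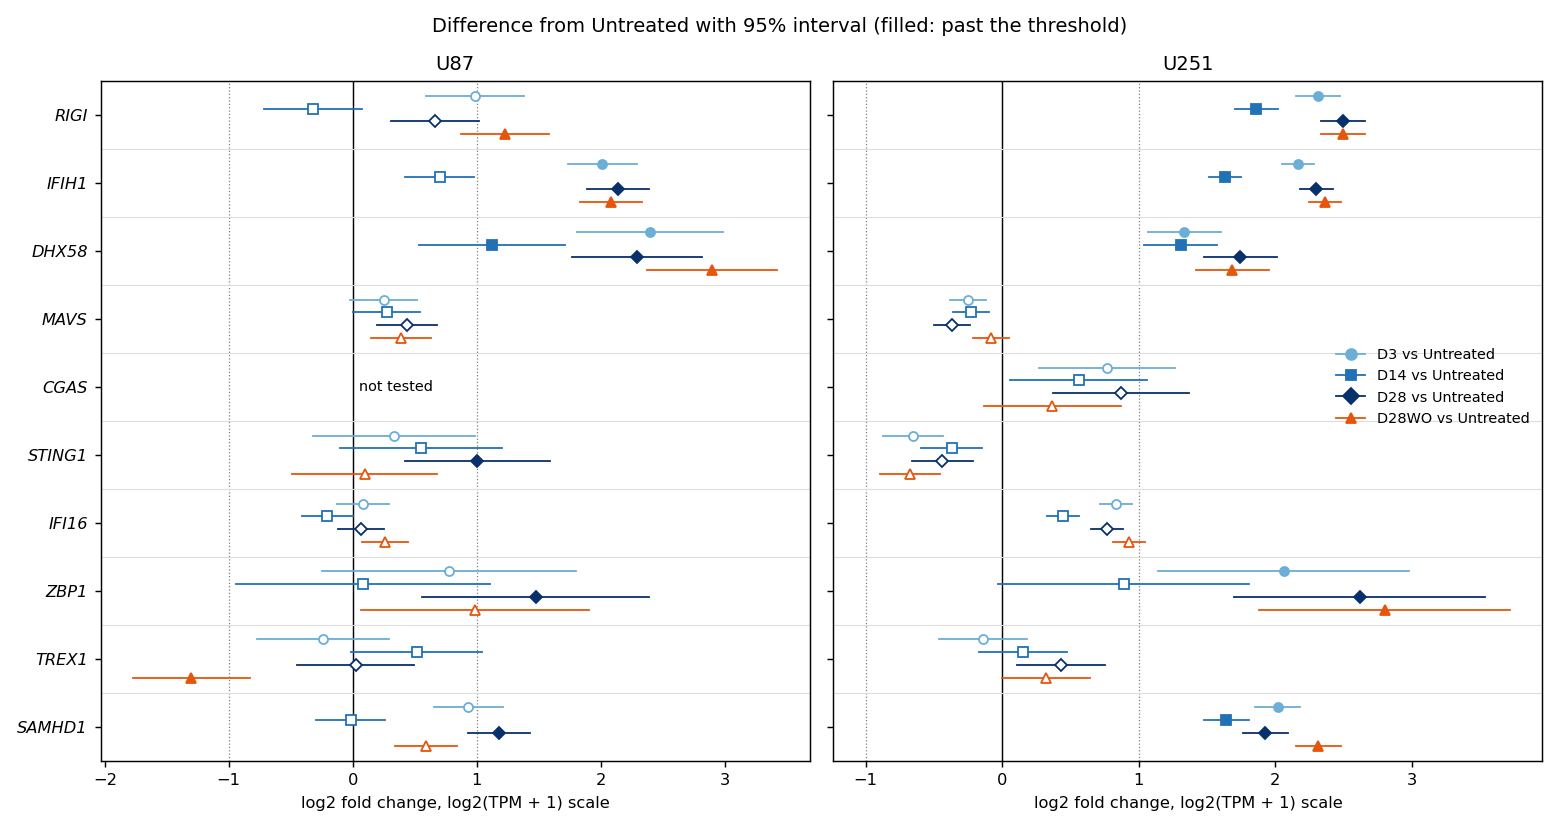
Log2 fold change of each gene against Untreated (horizontal axis, log2(TPM + 1) scale) with its 95% interval, for U87 (left) and U251 (right); marker and colour give the group, filled markers passed the threshold, and dotted lines mark a log2 fold change of 1 in size. The 3 helicases and SAMHD1 lie to the right in U251 at all 4 times, and TREX1 at D28WO in U87 is the only filled marker left of 0.

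MAVS, through which the RNA sensors signal, moved little. In U87 MAVS (chr20:3846799-3876123, plus strand) was at 18.3, 18.8 and 16.3 TPM in the Untreated libraries, 19.9 and 22.8 for D3, 21.3 and 22.1 for D14, 24.7, 25.7 and 22.9 for D28, and 25.3, 21.7 and 23.9 for D28WO. Each treated U87 library was above the highest Untreated library, with differences of 0.44 ± 0.11, adjusted p = 0.015 at D28 and 0.39 ± 0.11, adjusted p = 0.014 at D28WO that were under the fold limit. The median gene shifted by 0.19 and 0.25 in the same comparisons, and after quantile normalization the D28WO value was -0.011. In U251 MAVS was at 52.9, 50.7 and 49.3 TPM in the Untreated libraries, 42.0, 42.9 and 42.8 for D3, 44.8, 42.1 and 42.8 for D14, 41.2, 39.3 and 37.6 for D28, and 46.8, 49.0 and 48.5 for D28WO. There each treated library was below the lowest Untreated library, with differences of -0.25 ± 0.06, adjusted p = 0.0044 at D3, -0.23 ± 0.06, adjusted p = 0.015 at D14 and -0.36 ± 0.06, adjusted p = 3.1e-04 at D28, while at D28WO the interval of the difference was -0.21 to 0.05. At D28WO, MAVS in U251 was higher than at D28 by 0.28 ± 0.06, adjusted p = 0.0034, which did not pass the fold limit.

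On the DNA side, the sensor CGAS was very low in both lines. CGAS (chr6:73413515-73452297, minus strand) was at 0, 0.236 and 0 TPM in the Untreated libraries, 0.161 and 0.296 for D3, 0.564 and 0.211 for D14, 0.373, 0.174 and 0 for D28, and 0.211, 0.171 and 0.197 for D28WO in U87, where it was not tested. In U251 its level was 0, 0.0779 and 0.0935 TPM in the Untreated libraries, 0.708, 1.16 and 0.571 for D3, 0.496, 0.929 and 0.307 for D14, 1.12, 1.01 and 0.677 for D28, and 0.351, 0.533 and 0.222 for D28WO. Each treated U251 library was above the highest Untreated library, yet none exceeded 1.16 TPM. Its U251 mean was 0.55 TPM, but 0.454 TPM without D28, so it reached the minimum mean only through the treated level, and its values are given as a description. The size of a difference at this level depends on the pseudocount: with 0.1 in place of 1, the log2 difference from Untreated was 2.54 in place of 0.77 at D3 and 2.75 in place of 0.87 at D28.

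STING1, the adaptor below CGAS, had a different level and direction in the lines, which was not tested. In U87 STING1 (chr5:139475533-139482935, minus strand) was at 2.84, 2.16 and 2.76 TPM in the Untreated libraries, 2.34 and 5.05 for D3, 3.97 and 4.50 for D14, 5.74, 5.42 and 7.56 for D28, and 2.07, 3.61 and 2.95 for D28WO. The D28 libraries were all above Untreated and above the D28WO libraries, which overlapped with Untreated. STING1 rose at D28 (1.01 ± 0.27, adjusted p = 0.019), only just past the fold limit. The call was lost with median-ratio size factors (0.86), with quantile normalization (0.50, adjusted p = 0.29) and without Untreated replicate 2 (0.92, adjusted p = 0.054) or D28 replicate 3 (0.88, adjusted p = 0.056). In U251 STING1 was at 85.6, 79.8 and 70.7 TPM in the Untreated libraries, 42.9, 51.5 and 54.9 for D3, 67.8, 55.3 and 58.8 for D14, 57.3, 56.1 and 59.6 for D28, and 49.2, 51.9 and 45.5 for D28WO, far above the level in U87. All treated U251 libraries were below the lowest Untreated library. The difference was -0.65 ± 0.10, adjusted p = 1.7e-04 at D3, -0.37 ± 0.10, adjusted p = 0.02 at D14, -0.44 ± 0.10, adjusted p = 0.0037 at D28 and -0.67 ± 0.10, adjusted p = 2.2e-04 at D28WO, each past the adjusted p but under the fold limit, with mean TPM 1.58-fold lower at D3 and 1.61-fold lower at D28WO.

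IFI16 was the most abundant of the 10 genes in both lines, with a median of 176 TPM over the 13 U87 libraries and 211 TPM over the 15 U251 libraries. In U87 IFI16 (chr1:158999968-159055155, plus strand) was at 146, 160.5 and 179.5 TPM in the Untreated libraries, 176 and 166 for D3, 143 and 137 for D14, 177, 151 and 180.3 for D28, and 189, 199.8 and 192 for D28WO. The D28WO libraries were above all Untreated libraries (0.26 ± 0.09, adjusted p = 0.028), a difference about as large as the shift of the median gene, and the D3 and D28 libraries overlapped with Untreated. In U251 it was at 127, 119 and 127 TPM in the Untreated libraries, 216, 239 and 212 for D3, 171, 175 and 164 for D14, 217, 211 and 209.6 for D28, and 232, 232 and 248 for D28WO. The U251 groups did not overlap with Untreated, and the difference was 0.84 ± 0.05, adjusted p = 4.2e-08 at D3, 0.45 ± 0.05, adjusted p = 6.4e-05 at D14, 0.77 ± 0.05, adjusted p = 8.6e-08 at D28 and 0.93 ± 0.05, adjusted p = 2.1e-08 at D28WO, under the fold limit each time.

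ZBP1 went from near 0 to a low level in both lines. ZBP1 (chr20:57603846-57620576, minus strand) was listed at 0 in the 3 Untreated U87 libraries, so no fold is given there. The treated U87 libraries had 0.929 and 0.521 TPM (D3), 0.0619 and 0.0560 TPM (D14), 1.13, 4.15 and 0.956 TPM (D28) and 0.781, 2.44 and 0.266 TPM (D28WO). The gene passed at D28 (adjusted p = 0.026), where replicate 2 stood apart, and without that replicate the adjusted p was 0.094. Leaving out Untreated replicate 1, 2 or 3 also ended the call (adjusted p = 0.059, 0.055 and 0.072), as did no filter on low values (adjusted p = 0.12) and only the compared groups in the fit (adjusted p = 0.069). In U251 ZBP1 was at 0.167, 0.772 and 0 TPM in the Untreated libraries, 2.04, 5.57 and 6.50 for D3, 0.653, 3.63 and 0.723 for D14, 5.96, 6.44 and 8.23 for D28, and 11.1, 5.84 and 7.43 for D28WO. All D3, D28 and D28WO libraries were above the Untreated ones, whereas D14 replicates 1 and 3 were not. ZBP1 rose by 2.06 ± 0.43, adjusted p = 0.0015 at D3, 2.62 ± 0.43, adjusted p = 2.4e-04 at D28 and 2.80 ± 0.43, adjusted p = 2.2e-04 at D28WO, and at D14 the difference was 0.89 ± 0.43, adjusted p = 0.16.

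The DNA exonuclease TREX1 fell in 1 setting only, U87 after washout. TREX1 (chr3:48465811-48467645, plus strand) was at 41.5, 47.9 and 38.0 TPM in the Untreated libraries, 40.8 and 31.1 for D3, 70.7 and 52.4 for D14, 42.8, 38.1 and 48.6 for D28, and 18.0, 11.2 and 22.3 for D28WO in U87. The D28WO libraries were below all other U87 libraries. TREX1 was 2.47-fold lower in mean TPM at D28WO than in Untreated (-1.30 ± 0.22, adjusted p = 5.6e-04), while the D28 difference from Untreated had an interval of -0.45 to 0.50. TREX1 lies within the span of ATRIP, a DNA damage signalling gene on the same strand, and the assignment of shared reads is not known here. ATRIP differed in the same direction at U87 D28WO, by -0.70 ± 0.10, adjusted p = 2.6e-04. In the same libraries CSF1R, which made up most of the summed level of 10 leukocyte markers in U87, went from 58.9, 47.3 and 59.4 TPM in Untreated to 11.2, 16.7 and 22.9 TPM, and the sum of the list from 49.5 to 60.7 TPM to 12.8 to 25.9 TPM, with 4 of the 10 markers at 0 in every Untreated library. Members of the list did not all follow CSF1R at D28WO. NKG7, a gene of cytotoxic lymphocytes, was at 0 in the Untreated U87 libraries, at 1.32 and 0.970 TPM at D3, 1.01 and 2.27 TPM at D14, 0 to 0.822 TPM at D28 and 0.789 to 0.877 TPM after washout, and CD14 was at 0.284 to 0.510 TPM in Untreated and 0.556 to 0.604 TPM after washout. PTPRC, the pan-leukocyte marker, was at most 1.47 TPM in U87. Its mean was lower after washout (0.079 TPM) than in Untreated (0.429 TPM), as was that of ITGAM (0.153 and 0.212 TPM), with overlapping ranges for both. The part of these markers in the TREX1 result was not tested. In U251 TREX1 was at 58.7, 53.8 and 48.7 TPM in the Untreated libraries, 46.5, 44.8 and 55.0 for D3, 68.8, 50.3 and 61.2 for D14, 63.8, 77.9 and 77.2 for D28, and 53.2, 72.3 and 78.5 for D28WO. Groups overlapped with Untreated at D3, D14 and D28WO, and at D28 all libraries were above Untreated by 0.43 ± 0.15, adjusted p = 0.033, under the fold limit.

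SAMHD1, the dNTP hydrolase, rose in both lines but more in U251. SAMHD1 (chr20:36890229-36951893, minus strand) was at 37.7, 45.2 and 35.4 TPM in the Untreated libraries, 67.5 and 84.9 for D3, 37.2 and 40.4 for D14, 87.9, 92.4 and 90.2 for D28, and 56.4, 56.0 and 66.6 for D28WO in U87. D3, D28 and D28WO libraries were above all Untreated libraries, and D14 overlapped with them. The difference was 0.93 ± 0.13, adjusted p = 6.5e-04 at D3 and 0.59 ± 0.11, adjusted p = 0.0015 at D28WO, both under the fold limit, and SAMHD1 rose at D28 by 1.18 ± 0.11, adjusted p = 2.9e-05, a value of 0.99 with median-ratio size factors. In U251 its level was 39.9, 43.9 and 35.0 TPM in the Untreated libraries, 151, 177 and 163 for D3, 124, 125 and 126 for D14, 152, 151 and 155 for D28, and 189.9, 201 and 209 for D28WO. No treated library overlapped with Untreated, and SAMHD1 rose 4.12-fold in mean TPM at D3 (2.02 ± 0.08, adjusted p = 1.7e-10), 3.16-fold at D14 (1.64 ± 0.08, adjusted p = 4.4e-09), 3.86-fold at D28 (1.93 ± 0.08, adjusted p = 2.4e-10) and 5.05-fold at D28WO (2.31 ± 0.08, adjusted p = 4.7e-11). The statement that the rise was larger in U251 is a comparison of values side by side and was not tested.

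Between D3 and D14, RIGI, IFIH1 and DHX58 fell in U87 (3 of 9 genes, background 2.63%). RIGI fell by 1.31 ± 0.20 on the log2 scale (adjusted p = 0.0023), IFIH1 fell by 1.31 ± 0.14 (adjusted p = 1.7e-04) and DHX58 fell by 1.28 ± 0.29 (adjusted p = 0.03). Both groups hold 2 libraries, and DHX58 no longer passed without D3 replicate 2 (-1.10, adjusted p = 0.20) or 3 (-1.45, adjusted p = 0.075) or D14 replicate 2 (-1.16, adjusted p = 0.19) or 3 (-1.39, adjusted p = 0.10), nor with no filter on low values (adjusted p = 0.14). With 1 library left in a group, the spread comes from the other groups. When the fit held only these 4 libraries, the log2 differences were the same and fewer residual degrees of freedom remained, and the adjusted p was 0.10 for RIGI, 0.090 for IFIH1 and 0.12 for DHX58. SAMHD1 differed by -0.95 ± 0.14, adjusted p = 0.0019, under the fold limit. In U251 none of the 10 genes passed between D3 and D14 (limma, background 6.49%). At an unadjusted p below 0.05 there were 6, and past the adjusted p alone 4. The share of all genes at these looser limits is not given here, so the counts are not read as a result. The 4 were RIGI (-0.45 ± 0.07, adjusted p = 5.8e-04), IFIH1 (-0.54 ± 0.05, adjusted p = 1.0e-05), IFI16 (-0.39 ± 0.05, adjusted p = 1.5e-04) and SAMHD1 (-0.38 ± 0.08, adjusted p = 0.0025), each lower at D14.

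From D14 to D28, IFIH1, DHX58 and SAMHD1 rose in U87 (3 of 9 genes, background 2.12%), by 1.44 ± 0.13, adjusted p = 3.4e-05, 1.17 ± 0.27, adjusted p = 0.031 and 1.20 ± 0.13, adjusted p = 1.5e-04. DHX58 did not pass when any of the 5 libraries was left out, with adjusted p from 0.065 to 0.24, nor with no filter on low values (adjusted p = 0.16). RIGI was higher by 0.98 ± 0.18, adjusted p = 0.009, just under the fold limit. In U251, ZBP1 alone passed (1 of 10 genes, background 5.84%), at 1.73 ± 0.43, adjusted p = 0.011. RIGI, IFIH1, DHX58, IFI16 and SAMHD1 were also higher at D28 than at D14 in U251, with log2 differences from 0.29 (SAMHD1) to 0.67 (IFIH1) and adjusted p of at most 0.023, under the fold limit.

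At D28WO the RNA sensors RIGI, IFIH1 and DHX58 stood above the Untreated level in both lines. In U87 RIGI was below that level at D14, the group from which washout started. There was no untreated group at day 28, and whether washout reversed a rise was not tested. At day 28, washout was compared with continued exposure, and in U87 TREX1 alone passed (1 of 9 genes, background 5.53%), at -1.32 ± 0.22, adjusted p = 0.0018. After washout SAMHD1 differed from D28 by -0.59 ± 0.11, adjusted p = 0.0044 and STING1 by -0.91 ± 0.27, adjusted p = 0.035, whereas RIGI was higher by 0.57 ± 0.16, adjusted p = 0.031, all under the fold limit. The interval for IFIH1 in U87 ran from -0.30 to 0.19. In U251 none of the 10 genes passed between D28WO and D28 (limma, background 9.26%). At an unadjusted p below 0.05 there were 5, and past the adjusted p alone 3. These counts too have no share of all genes beside them and are not read as a result. All 3 were higher after washout: SAMHD1 (0.39 ± 0.08, adjusted p = 0.0018), MAVS (0.28 ± 0.06, adjusted p = 0.0034) and IFI16 (0.16 ± 0.05, adjusted p = 0.042). For the helicases the intervals of the difference in U251 were -0.16 to 0.16 for RIGI, -0.05 to 0.18 for IFIH1 and -0.33 to 0.21 for DHX58. Set against D14, the group from which washout started, RIGI, IFIH1 and DHX58 were higher and TREX1 lower at D28WO in U87 (4 of 9 genes, background 9.69%), with 1.54 ± 0.18, adjusted p = 1.1e-04 for RIGI, 1.38 ± 0.13, adjusted p = 1.9e-05 for IFIH1, 1.78 ± 0.27, adjusted p = 6.0e-04 for DHX58 and -1.82 ± 0.24, adjusted p = 2.6e-04 for TREX1. In U251 ZBP1 alone passed this comparison (1 of 10 genes, background 7.17%), at 1.91 ± 0.43, adjusted p = 0.0045. Comparisons that share a group of libraries are not independent of each other.

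**Figure D3:**
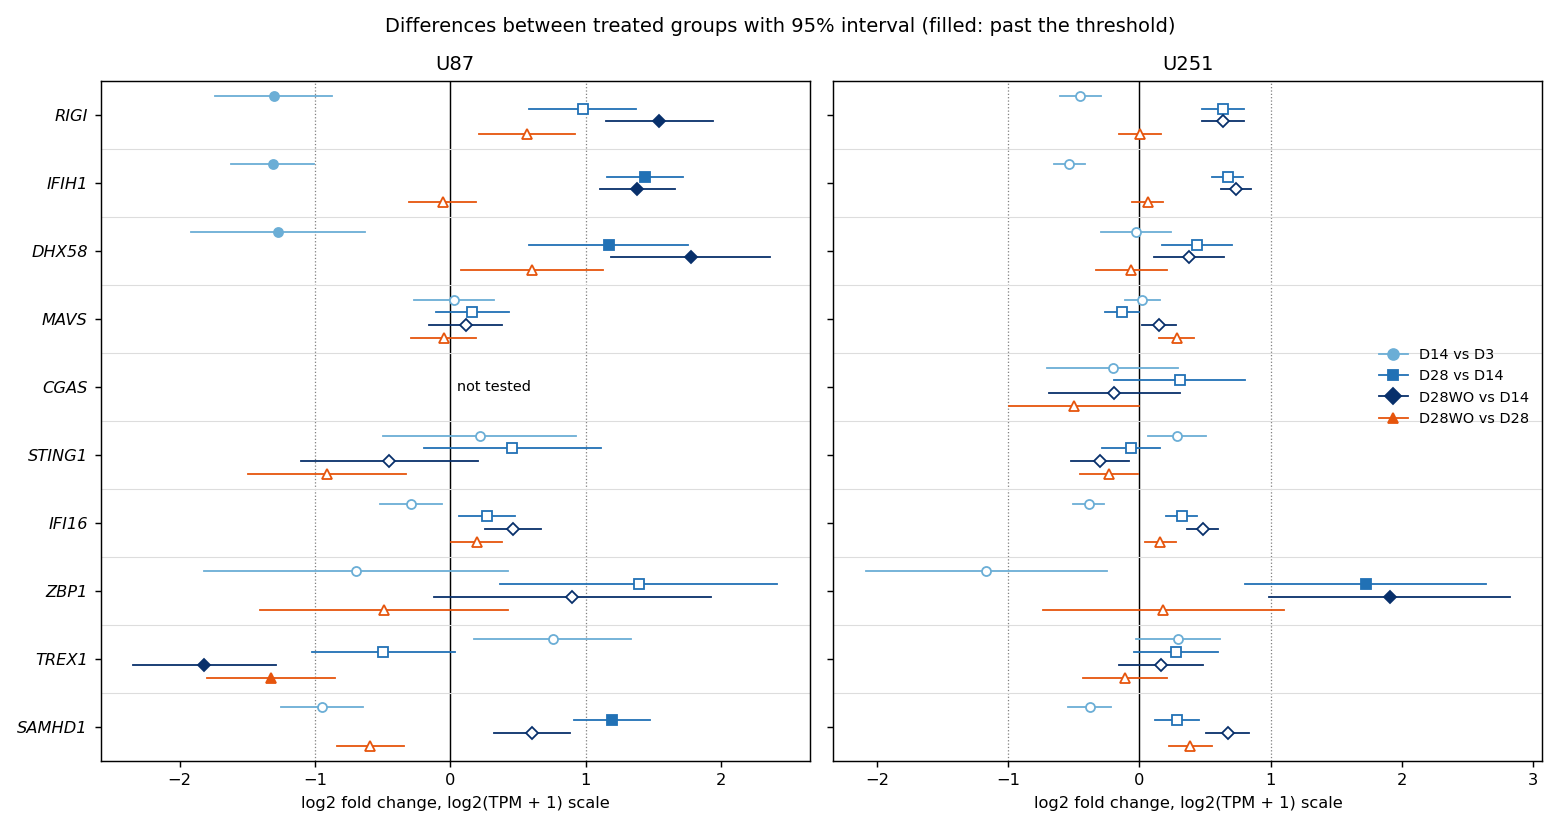
Log2 fold change of each gene between treated groups (horizontal axis, log2(TPM + 1) scale) with its 95% interval, for U87 (left) and U251 (right); filled markers passed the threshold and dotted lines mark a log2 fold change of 1 in size. In U87 the 3 helicases lie left of -1 for D14 against D3, and TREX1 is the only filled marker for D28WO against D28.

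The neighbours of these genes in their pathways were described from fixed lists, against Untreated unless another comparison is named. In order of time with washout last, 6.23%, 2.1%, 7.38% and 14.9% of all genes passed in U87, and 14.3%, 5.76%, 15.2% and 7.45% in U251, and each list is read beside these shares. Counts at an unadjusted p below 0.05 have no such share beside them. Of 20 partners of RNA sensing, 1 of 20 tested rose in U87 at D3 and at D28, 2 rose at D28WO and none passed at D14 (limma, 4 at an unadjusted p below 0.05), while in U251 3 of 19 tested rose at D3 and 2 at each later time, and none fell. As shares of the list these are 5.0%, 5.0% and 10.0% in U87, each below the share of all genes, and 15.8% and then 10.5% in U251, below it at D28 and above it at the other times. DDX60, a helicase reported as a cofactor of RIG-I, was the gene in common. It went from 11.1, 15.9 and 15.9 TPM in Untreated U87 to 65.3, 65.2 and 65.8 TPM at D28WO (2.14 ± 0.13, adjusted p = 4.6e-07), and from 14.6, 12.3 and 10.4 TPM to 119, 117 and 117 TPM in U251 (3.16 ± 0.11, adjusted p = 5.7e-11). TRIM25, the ubiquitin ligase of RIG-I, rose in U87 at D28WO (1.29 ± 0.11, adjusted p = 6.9e-06) and in U251 at D3 (1.13 ± 0.10, adjusted p = 1.2e-06). TRIM14 rose in U251 at all 4 times, by 1.40 ± 0.09, adjusted p = 5.9e-08 at D28WO. The median change over the tested partners at D28 was 0.29 in U87 and 0.09 in U251, beside 0.19 and 0.16 over all genes.

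Of 25 partners of DNA sensing, 24 were tested in U87 and 22 in U251. In U87, 3 rose at D3 and at D28 (AIM2, PYHIN1 and TRIM56), 2 at D28WO (PYHIN1 and TRIM56) and none at D14 (limma, 7 at an unadjusted p below 0.05), and in U251 AIM2 alone rose, at all 4 times. The share of the list in U87 was 12.5% at D3 and D28, above that of all genes, and 8.33% at D28WO, below it, and in U251 it was 4.55% each time, below it. The median changes at D28 were -0.01 in U87 and -0.13 in U251, beside 0.19 and 0.16 over all genes. Among 10 genes of cyclic dinucleotide transport, 9 were tested in each line and none passed against Untreated in either line at any time (limma), with 1 to 6 at an unadjusted p below 0.05. Of 18 kinases, adaptors and IRFs below the sensors, none passed in U251 until D28WO (limma, 7 or 8 at an unadjusted p below 0.05 at the earlier times), when 5.56% of the list did, below the share of all genes, through OPTN (1.00 ± 0.06, adjusted p = 3.2e-08). In U87 IRF7, the interferon-inducing transcription factor, rose at D3 (1.26 ± 0.21, adjusted p = 0.0025), D28 (1.29 ± 0.19, adjusted p = 7.2e-04) and D28WO (1.62 ± 0.19, adjusted p = 4.8e-05), where OPTN (1.16 ± 0.07, adjusted p = 2.7e-07) and TBKBP1 (1.50 ± 0.14, adjusted p = 7.5e-06), which binds the kinase TBK1, rose with it. The U87 shares of this list were 5.56% at D3 and D28, below those of all genes, and 16.7% at D28WO, beside 14.9%. In U251 IRF7 stayed at 0 to 3.03 TPM in every library.

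TLR3, the endosomal receptor of double-stranded RNA, was the only gene of 10 in the list of endosomal and membrane sensors to pass against Untreated, and it did so in both lines. In U87 it went from 9.43, 9.97 and 8.06 TPM in Untreated to 58.7, 56.4 and 57.9 TPM at D28 (2.54 ± 0.11, adjusted p = 5.6e-08), with 11.7 and 13.5 TPM at D14. In U251 it went from 7.16, 9.63 and 6.38 TPM to 59.6, 51.8 and 50.1 TPM (2.66 ± 0.14, adjusted p = 3.2e-09). Of the 6 death partners of ZBP1, 5 were tested in each line, and MLKL, which ruptures the membrane in necroptosis, rose in U251 at all 4 times, by 2.07 ± 0.15, adjusted p = 1.4e-07 at D28. In U87 none of them passed at any time (limma), with 0 at D14 and 3 to 5 at the other times at an unadjusted p below 0.05. Among 17 genes of nucleic acid clearance, 15 tested in U251 and 16 in U87, only PNPT1, an RNA-degrading enzyme of mitochondria, passed against Untreated: it rose in U251 at D3 (1.24 ± 0.06, adjusted p = 2.3e-09) and D28WO (1.24 ± 0.06, adjusted p = 3.4e-09), which is 6.67% of the list.

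**Figure D4:**
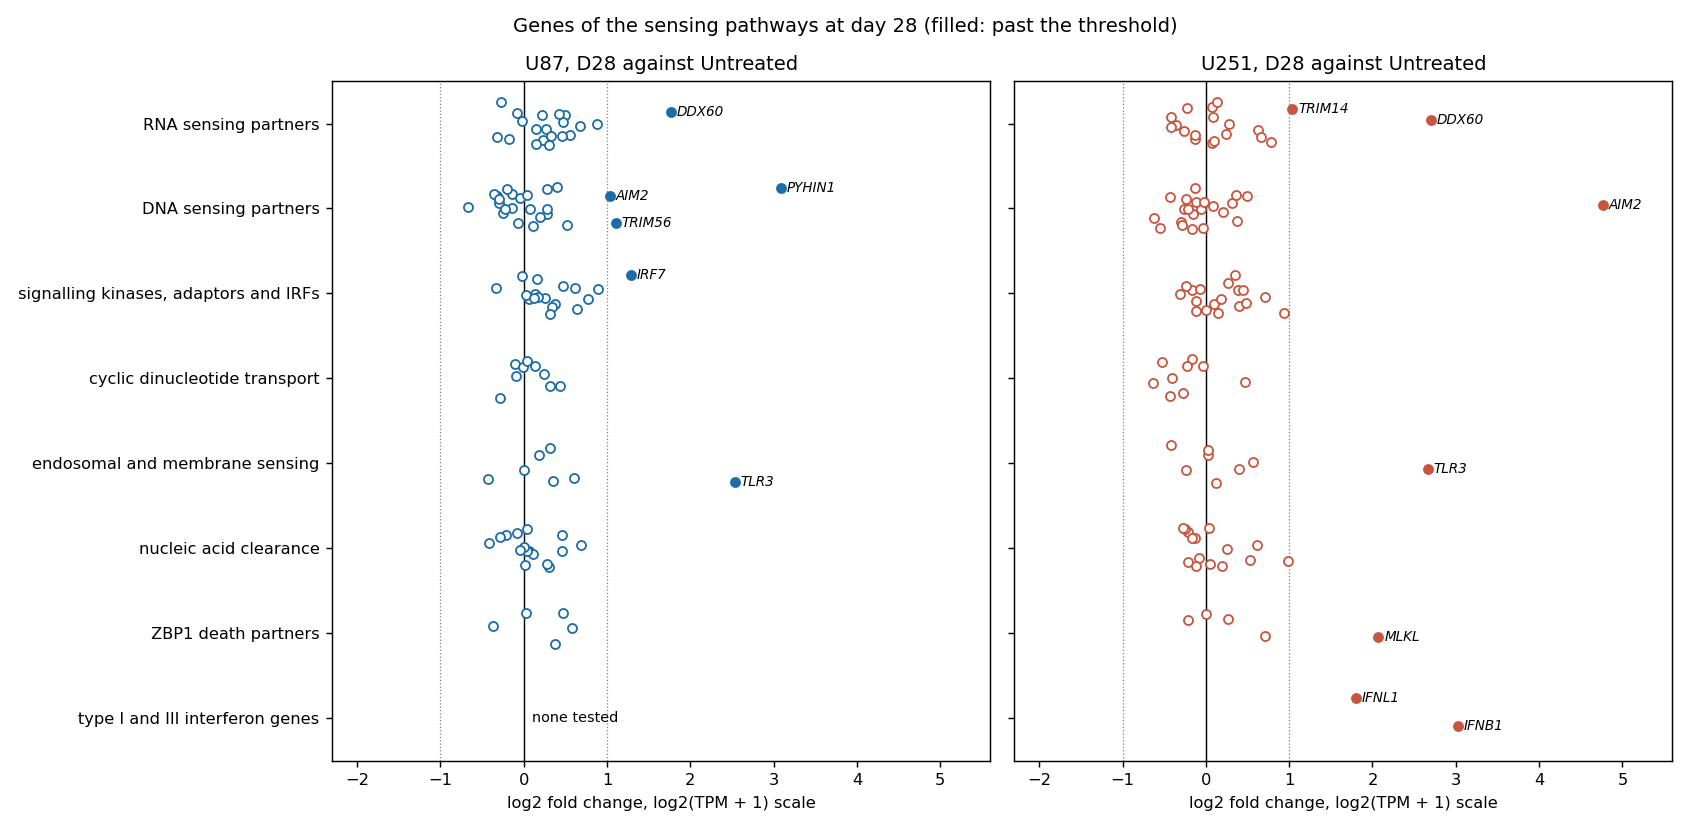
Log2 fold change at D28 against Untreated (horizontal axis, log2(TPM + 1) scale) of each tested gene of 8 pathway lists, 1 point per gene, for U87 (left) and U251 (right); filled and named points passed the threshold, points are spread vertically within a list only to separate them, and dotted lines mark a log2 fold change of 1 in size. Most points lie between -1 and 1, with DDX60 and TLR3 to the right in both lines and IFNB1 and IFNL1 in U251, where IFNL1 was tested only through its D28 level.

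Of the interferon genes, which sensors of this kind switch on, IFNB1 rose in U251, and none was tested in U87. IFNB1, the gene of interferon-β, was listed at 0 in all 13 U87 libraries. In U251 it was listed at 0 in the 3 Untreated libraries, and the treated libraries had 2.21, 1.09 and 2.11 TPM (D3), 3.81, 3.47 and 3.24 TPM (D14), 6.26, 6.77 and 8.59 TPM (D28) and 2.05, 1.66 and 0.927 TPM (D28WO). IFNB1 passed at each of the 4 times (adjusted p = 2.3e-04, 2.6e-05, 2.5e-07 and 8.3e-04), and no fold is given against a group at 0. It fell between D28 and D28WO (-1.71 ± 0.24, adjusted p = 1.3e-04), a step over which none of RIGI, IFIH1 and DHX58 passed in U251. IFNL1, a type III interferon gene, was also listed at 0 in Untreated U251 and at 2.23, 1.91 and 3.53 TPM at D28. Its mean over the 15 libraries was 0.768 TPM but 0.321 TPM without D28, so it reached the minimum mean only through the group where it was high, and its values are given as a description. The other 19 of 21 type I and III interferon genes were under the minimum mean in U251, and all 21 were in U87.

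The summed level of 10 glial and glioma markers was lower in each treated U251 group than in Untreated, but its members did not move together. The sum was 3962 to 4056 TPM in Untreated U251, 1663 to 2009 TPM at D3, 2828 to 3217 TPM at D14, 1856 to 2080 TPM at D28 and 2280 to 2396 TPM after washout. Of 8 markers tested, 3 fell at D3 and at washout (GFAP, S100B and NES), 3 fell at D28 (GFAP, S100B and SOX9), and none rose. This is 37.5% of the tested markers each time, beside 14.3% of all genes at D3, 15.2% at D28 and 7.45% at D28WO. None of the 8 passed at D14. GFAP fell from a mean of 1258 TPM to 243 TPM at D28, while SLC1A3 had means of 115 TPM in Untreated and 160.5 TPM at D28, SOX2 had 159 TPM in Untreated and 173 TPM after washout, and OLIG2, which was not tested, was at 0 in Untreated and had a mean of 1.10 TPM at D28. In U87 the sum was 1593 to 1760.1 TPM at D28WO, where TREX1 fell and the RIGI and DHX58 changes were at their highest, below the 1897 to 2325 TPM of the other groups. There SOX9 fell (-1.03 ± 0.17, adjusted p = 4.5e-04), but GFAP rose (2.33 to 6.90 TPM in Untreated and 11.8 to 16.8 TPM at D28WO, 1.45 ± 0.37, adjusted p = 0.008) and OLIG2 rose (4.94 to 9.49 TPM and 22.0 to 32.0 TPM, 1.78 ± 0.37, adjusted p = 0.0022). The sum of 10 leukocyte markers in U251 was 4.62 to 8.25 TPM in Untreated, 8.66 to 12.4 TPM at D3, 9.11 to 10.6 TPM at D14, 7.11 to 12.2 TPM at D28 and 5.11 to 7.45 TPM after washout. CD14, a monocyte marker, was the 1 of 5 tested that rose, at all 4 times, which is 20% of the list. Of all genes, 14.3%, 5.76%, 15.2% and 7.45% passed, in order of time with washout last. CD14 went from a mean of 0.569 TPM in Untreated to 4.51 TPM at D3 (1.85 ± 0.28, adjusted p = 1.3e-04) and 3.25 TPM at D28. The part of these markers in the results for the sensors was not tested.

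For each sensor tested in both lines, the gene outside the 10 with the most similar pattern was taken as that with the highest value of the lower of its 2 Pearson correlations, over the 13 U87 and the 15 U251 libraries, among 20473 genes tested in both lines. These are descriptions over libraries that fall into treatment groups. IFIH1 was most like APOL6 (r = 0.992 in U87 and 0.986 in U251), SAMHD1 most like CMPK2 (0.977 and 0.968), DHX58 most like HELZ2 (0.966 and 0.968), RIGI most like B2M (0.955 and 0.955) and IFI16 most like ATF4 (0.909 and 0.939). Lower values were reached for MAVS with HSBP1L1 (0.897 and 0.907), STING1 with KCTD11 (0.837 and 0.804), ZBP1 with MICB-DT (0.812 and 0.792) and TREX1 with WNT5B (0.778 and 0.834).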

How the data were processed

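RNA-seq libraries of U87 and U251 cells were made with the TruSeq RNA kit. Per the labels, the authors used FastQC, Trim Galore, STAR, featureCounts and edgeR with the GRCh38 build, and they deposited TPM values, 1 table per line. How TPM was computed and how overlapping genes were counted are not given in the sources used here. The values of each library sum to a fixed total, so its read total cannot be had from them, and the study's methods state only a minimum depth. The number of replicates sets the precision. Replicates are labelled biological, so p-values measure the spread between these cultures. Of the columns for U87, 2 share a name and were not used.

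For each line, log2(TPM + 1) of the genes whose mean reached 0.5 TPM (22918 for U87, 23667 for U251) was fitted with limma 3.58.1 in R 4.3.3 over all 5 groups, with trended empirical Bayes moderation and Benjamini-Hochberg adjustment, after a check on simulated data. Gene positions are from GENCODE, and promoter windows from RefSeq.

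All 10 genes are named. Of each pathway list, genes that passed against Untreated in both lines are named, with up to 3 that passed in 1 line. The genes and lists were chosen with earlier results of these data known. Alternatives were another pseudocount, other filters, quantile and median-ratio scaling, the compared groups alone, a replicate block, the adjusted p alone and leaving out each library. Leaving out the D14 groups was added after the data had been seen. Values of some genes, and of a list of brain and stromal markers, are not reported here.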

Additional observations from a re-analysis of the deposited data

Results flagged for a closer look

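Some genes of the set had every library above the comparison group in 1 line and every library below it in the other. With so few libraries per group, such a separation can arise by chance. The share of all genes with this pattern is not given here, so the pattern is not read as setting these genes apart. The lines' tables were made separately, so these differences between lines were not tested, and no value is weighed here. MAVS, the mitochondrial adaptor, was higher in U87 and lower in U251 against Untreated at D3 (log2 fold change 0.25 and -0.25), D14 (0.28 and -0.23), D28 (0.44 and -0.36) and D28WO (0.39 and -0.082), and at D28 against D14 (0.16 and -0.13). Each of these is under 0.5 in size, and the shift of the median gene in U87 was 0.15 to 0.25 against Untreated. STING1 differed in the same way at D14 (0.55 in U87 and -0.37 in U251) and D28 (1.01 and -0.44), from a far lower level in U87.

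At D14 against Untreated, RIGI was lower in both U87 libraries (-0.32) and higher in the 3 U251 libraries (1.86), and IFI16 was lower in U87 (-0.20) and higher in U251 (0.45). The U87 D14 libraries are those in which IRF1 stood at the Untreated level. SAMHD1 was lower after washout than at D28 in U87 (-0.59) and higher in U251 (0.39).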

How the results depend on the processing

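The number of the 10 genes past the threshold kept within 1.5 times its value under most alternatives. Against Untreated at D3 in U87 it was 2, but 4 with a pseudocount of 0.1 or with the adjusted p alone, and 1 with only the compared groups in the fit. At D14 in U87 it was 1, but 0 with no filter on low values, quantile normalization, median-ratio size factors, the replicate block or only the compared groups, and 2 with the adjusted p alone. At D28 in U87 it was 5, but 3 with median-ratio size factors. At D28WO in U87 it was 4, but 7 with the adjusted p alone. For D14 against D3 in U87 it was 3, but 0 with only the compared groups. For D28WO against D28 in U87 it was 1, but 2 with a pseudocount of 0.1 and 4 with the adjusted p alone. In U251, apart from fits with a library left out, only the adjusted p alone moved counts beyond this limit. Against Untreated the count went to 9 at D3, 7 at D14 and 10 at D28. It went to 4 for D14 against D3, 6 for D28 against D14, 3 for D28WO against D28 and 7 for D28WO against D14. The D3 and D28 counts include CGAS, whose values are only a description. For either line, the share of all genes at the adjusted p alone is not given here, so these counts are not read as results about the 10 genes. Leaving out single libraries gave 2 to 4 at D3, 0 to 1 at D14, 3 to 5 at D28 and 4 to 5 at D28WO in U87, 2 to 3 for D14 against D3 and for D28 against D14, 1 to 2 for D28WO against D28, and 0 to 1 for D14 against D3 in U251. Without Untreated replicate 2 or D3 replicate 2 the D3 count in U87 was 4, without Untreated replicate 2 the D28 count was 3, without D28WO replicate 2 the count against D28 was 2, and in U251 without D3 replicate 1 or D14 replicate 2 the count for D14 against D3 was 1. Leaving out the D14 groups, an alternative chosen after seeing the data, changed no count.

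MAVS at D28WO in U87, 0.39 against Untreated, was -0.011 with quantile normalization. The other signs that turned were of values near 0: for D28WO against D28 in U251 RIGI was -0.033 with quantile normalization and -0.072 to 0.064 with single libraries left out, and DHX58 was 0.027 with median-ratio size factors and -0.13 to 0.031 with single libraries left out. Of 1249 alternative values of the 94 log2 fold changes followed, 1192 kept direction and side of the threshold, 36 no longer passed, 14 newly passed and 7 turned sign. The cause was not tested. No clear pairing of libraries by replicate number was seen. Deviations of same-numbered libraries correlated from -0.06 to 0.05 in U87 (7 of 13 libraries closest to their own number) and from -0.04 to 0.05 in U251 (6 of 15). The check cannot exclude pairing, since it weighs all tested genes alike and the deviations of 2 libraries in a group are exact opposites. The replicate block moved the count only at D14 in U87, from 1 to 0. Without counts, the precision of low values such as CGAS and ZBP1 is not known.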

Other observations

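AIM2 and PYHIN1, DNA-binding proteins of the same family as IFI16, differed in level between the lines. AIM2, the inflammasome sensor of cytosolic DNA, was at 62.9, 57.4 and 57.3 TPM in Untreated U87 and at 123, 117 and 127 TPM at D28 (log2 fold change 1.03 ± 0.09, limma adjusted p = 9.6e-06). In Untreated U251 AIM2 was at no more than 0.197 TPM, and at D28 it was at 25.6, 27.7 and 34.1 TPM. After washout AIM2 in U251 stood at 2.39, 1.47 and 3.50 TPM, below D28 in every library, while in U87 it was at 99.2, 99.9 and 114.7 TPM. PYHIN1 had at most 0.446 TPM in Untreated U87, 10.7, 8.51 and 7.86 TPM at D28 and 4.89, 3.42 and 7.07 TPM after washout, but no more than 1.06 TPM in any U251 library. The difference between lines was not tested.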
